A study of Homo sapiens with 9 samples.

Results

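The 84 genes described here encode the protein subunits of the cytosolic ribosome and their close paralogs, out of 20442 gene symbols in the deposited table. They were picked by symbol: names starting with RPL or RPS followed by a number, with an optional A, X or L ending, plus RPLP0, RPLP1, RPLP2 and RPSA. The symbol rule uses no measured value, but the family was chosen with earlier results of these data known. Of these, 46 belong to the large (60S) subunit, 31 to the small (40S) subunit, and 7 are paralogs: RPL3L, RPL7L1, RPL10L, RPL22L1, RPL26L1, RPL39L and RPS27L. The 77 subunit genes are called core genes below. The symbol rule leaves out a few genes of the same kind, of which FAU and RPL36AL are given separately.

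The cells were PC9, a human lung adenocarcinoma line driven by a mutant epidermal growth factor receptor (EGFR), and all of them stably carried the FUCCI4 cell cycle reporter with its mKO2-CDT1 and Clover-GMNN markers. Untreated cells (day 0) and cells kept for 28 days in 500 nM osimertinib, an EGFR inhibitor dissolved in DMSO, were fixed with glyoxal and sorted by DNA content and reporter colour. The 9 poly(A) libraries were day 0 G1 of clone 1 and clone 7, day 0 S of clone 1 and clone 7, day 0 G2 of clone 1, day 28 G1 of clone 1 and clone 7, day 28 S of clone 1 and day 28 G2 of clone 1. Only 2 clones were profiled, clone 7 was missing from 3 of the 6 groups, and the day 0 cells are labelled untreated, so the vehicle named in the protocol cannot be told apart from the drug. Nothing in the labels says whether libraries of a clone came from separate cultures, so p-values measure the spread between these libraries, which may be technical.

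Each ribosome carries a single copy of nearly every core protein around its ribosomal RNA, and the cell makes the proteins of the small and large subunits in matched amounts. Many of their mRNAs begin at a C followed by a run of pyrimidines, the 5′ terminal oligopyrimidine (TOP) motif, through which the kinase mTORC1 and the RNA-binding protein LARP1 control their translation and storage. A few genes have paralogs that are expressed in particular tissues, such as RPL3L in heart and skeletal muscle and RPL10L in testis.

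The TOP motif was looked for at the transcription starts listed by RefSeq (GRCh38.p14), as a C at the first transcribed base followed by at least 4 pyrimidines on the transcribed strand. It was present at the listed start of 28 of the 38 large subunit genes with an entry and of 18 of the 24 small subunit genes, together 46 of 62 core genes (74.2%). The same letters stood at 4.07% of 35116 listed starts and at 7.56% of the 9862 tested genes with an entry. Of the 5 paralogs with an entry, only RPL22L1 had it. The windows below run from 20 bases before the start through 20 transcribed bases, with the pyrimidine run in capitals where the motif is present. They show the core genes with the largest and smallest changes at day 28 that had an entry, the 2 genes that differed most between the clones, RPS6, and 3 pairs of a core gene with its paralog.
RPL27: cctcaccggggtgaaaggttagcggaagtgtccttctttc
RPS23: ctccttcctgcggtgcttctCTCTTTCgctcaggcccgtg
RPL28: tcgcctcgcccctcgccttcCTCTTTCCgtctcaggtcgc
RPS19: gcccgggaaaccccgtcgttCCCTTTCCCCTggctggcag
RPS21: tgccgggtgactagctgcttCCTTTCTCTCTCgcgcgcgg
RPL41: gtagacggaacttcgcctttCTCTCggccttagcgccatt
RPL21: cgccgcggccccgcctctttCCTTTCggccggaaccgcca
RPS6: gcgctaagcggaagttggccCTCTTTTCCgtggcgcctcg
RPL22: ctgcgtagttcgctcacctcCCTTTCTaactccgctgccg
RPL22L1: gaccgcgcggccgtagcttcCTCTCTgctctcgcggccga
RPL26: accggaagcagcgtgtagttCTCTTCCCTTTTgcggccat
RPL26L1: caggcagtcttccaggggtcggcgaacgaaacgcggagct
RPS27: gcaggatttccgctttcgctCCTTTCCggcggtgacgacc
RPS27L: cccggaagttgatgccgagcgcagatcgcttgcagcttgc

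The windows lie at chr17:42998399-42998438 on the plus strand for RPL27 and at chr5:82278335-82278374 on the minus strand for RPS23. Those of RPL28, RPS19, RPS21, RPL41 and RPL21 are on the plus strand, at chr19:55385912-55385951, chr19:41860235-41860274, chr20:62387083-62387122, chr12:56116613-56116652 and chr13:27251538-27251577. RPS6, RPL22, RPL22L1 and RPL26 are read from the minus strand, at chr9:19380217-19380256, chr1:6199576-6199615, chr3:170870176-170870215 and chr17:8383174-8383213. RPL26L1 and RPS27 lie on the plus strand at chr5:172958709-172958748 and chr1:153990742-153990781, and RPS27L on the minus strand at chr15:63157458-63157497. Each window has its listed start site at the first base of the transcribed side. In RPS21 and RPL26 the pyrimidine run is 12 bases long, and in RPL41 it is 5 bases long. No run is in capitals for RPL27, RPL26L1 and RPS27L, whose letters at the listed start do not meet the motif.

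The values are log2 of reads times a scaling factor for each library. For 76 of the 84 members the start and end given with the values lay within 3 bases of a coding span, introns included. Whether reads in introns were counted is not given in the sources used here. In the text these are log2 scaled reads, listed for day 0 in the order G1 clone 1, G1 clone 7, S clone 1, S clone 7, G2 clone 1, and for day 28 in the order G1 clone 1, G1 clone 7, S, G2. Libraries held 8.83 to 108.7 M reads (M for mega) over coding spans, day 0 G1 of clone 7 being the shallowest, and the core genes had at least 2667 reads in each library. These reads were recovered from the values and averaged 43.0 M per library, whereas the labels state an average of 24 M per sample. The reason for the gap is not given in the labels, so read numbers here are those the values imply. Of the 84 members, 82 passed the filter on low values. RPL3L (0 to 291 reads per library) and RPL10L (0 reads in all 9) did not, and RPL10L is therefore not detectable at this depth. The labelled cell type was checked with 8 epithelial markers, all of which passed the filter (summed 14410 to 22630 reads per M reads at day 0 and 9518 to 16030 at day 28). Leukocyte markers summed to 5.21 to 12.83 reads per M reads at day 0 and 2.48 to 5.13 at day 28. Fibroblast and endothelial markers summed to 19.25 to 26.57 at day 0 and 20.36 to 53.43 at day 28. Of these, 1 of 6 and 3 of 8 passed the filter, and none was at 0 in every library. Of 10 cell cycle phase markers 8 were called lower at day 28, a call made for 26.6% of all tested genes. The 2 day 0 G1 libraries differed in them. TOP2A, PLK1 and MKI67 were at 14.48, 11.82 and 13.39 log2 scaled reads in clone 7 and at 11.98, 9.32 and 11.27 in clone 1. CCNB1 and CDC20 were also higher in clone 7, CCNA2 was level, and CCNE2, CDC6, MCM6 and SLBP were lower. The part of all these markers in the results below was not tested.

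Ribosomal protein genes took a smaller share of the reads after 28 days of osimertinib. The 77 core genes held 11.56%, 13.05%, 9.05%, 10.75% and 12.14% of the reads at day 0, and 4.48%, 6.09%, 5.81% and 6.22% at day 28. No day 28 library reached the lowest day 0 library. The means were 11.31% ± 1.52 (SD, n = 5) and 5.65% ± 0.80 (SD, n = 4), a mean difference within phases of −5.68 percentage points (exact permutation test of the day labels within phase, two-sided, p = 0.0278, the smallest that 36 arrangements allow). Mitochondrially encoded genes, part of the same total, took 6.07% to 10.65% at day 0 and 19.56%, 8.61%, 21.55% and 15.84% at day 28. With mitochondrial genes left out of the total, the core share was 12.28% ± 1.80 (n = 5) against 6.76% ± 0.87 (n = 4), a difference of −5.43 points (exact permutation p = 0.0278). In bulk libraries, fewer cells of a type and less RNA per cell cannot be told apart, and a share says nothing about the amount of RNA in a cell.

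The balance between the subunits was compared next. The summed reads of the large subunit were 1.42 ± 0.064 times those of the small subunit at day 0 (SD, n = 5) and 1.49 ± 0.059 times at day 28 (SD, n = 4), with a mean difference within phases of 0.048 that did not pass the exact permutation test (p = 0.278). The median core gene stood at 16.93, 17.29, 16.62, 16.89 and 17.28 log2 scaled reads at day 0, and at 15.29, 15.65, 15.85 and 15.91 at day 28. The median of all tested genes stayed between 11.03 and 11.25 in the same 9 libraries.

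**Figure D1:**
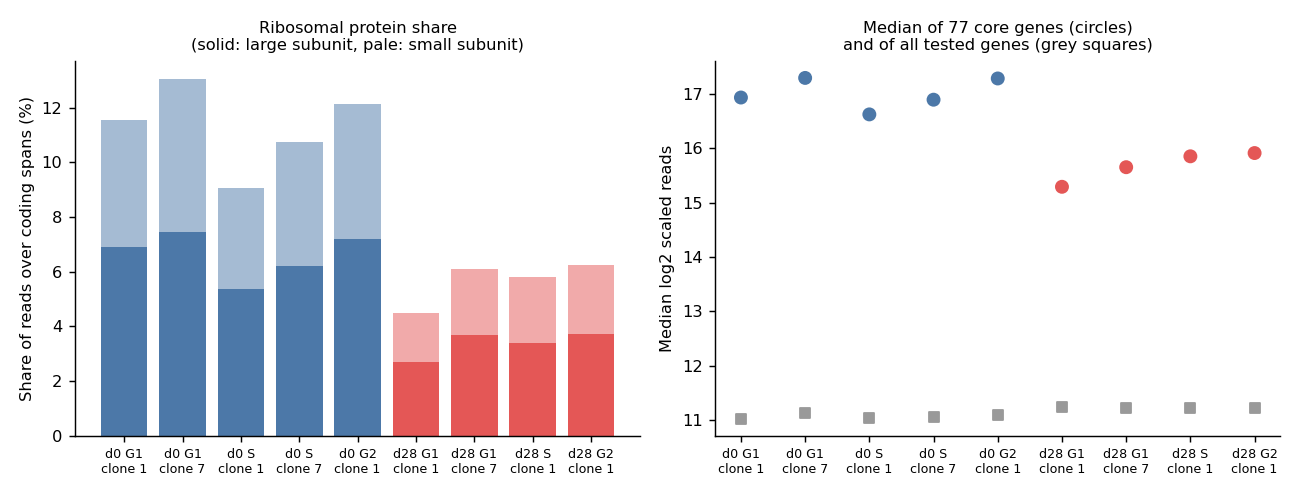
Left, the share of each library's reads over coding spans (%) held by large subunit (solid) and small subunit (pale) genes, with day 0 in blue and day 28 in red. Right, the median log2 scaled reads of the 77 core genes (circles) and of all tested genes (grey squares); every day 28 circle, at 15.29 to 15.91, lies below every day 0 circle, at 16.62 to 17.29.

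Gene by gene, 45 of 46 large subunit genes and 30 of 31 small subunit genes fell at day 28 (limma with day and phase as terms, Benjamini-Hochberg adjusted p under 0.05), and none rose. Among all 12391 tested genes 26.6% were called lower and 28.6% higher. Members have compact genes, their spans having a median of 3.85 kb compared with 25.8 kb over all tested genes, and 37.9% of genes with spans up to 10 kb were called lower. The median log2 fold change was −1.31 in the large subunit and −1.35 in the small subunit, against 0.01 over all tested genes and −0.42 over those with short spans. On the linear scale the median core gene was 2.48-fold lower, and 71 of 77 were at least 2-fold lower. The share of all tested genes at least 2-fold lower was not counted. In 42 of 46 large and 29 of 31 small subunit genes every day 28 library was below every day 0 library, which held for 18.9% of all tested genes. Quantile scaling gives every library the same distribution of values. Under it 31 of 77 core genes (40.3%) were called lower, none was called higher and the median was −0.50. That scaling called 3400 of all 12391 tested genes lower. Of the 3272 genes with spans up to 10 kb it called 1317 lower, with a median of −0.52, close to the core genes. With the trend of the change with span removed, 70 of 77 were called lower (median −0.99), and RPL13, RPL21, RPS19, RPS27 and RPS28 lost their calls.

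**Figure D2:**
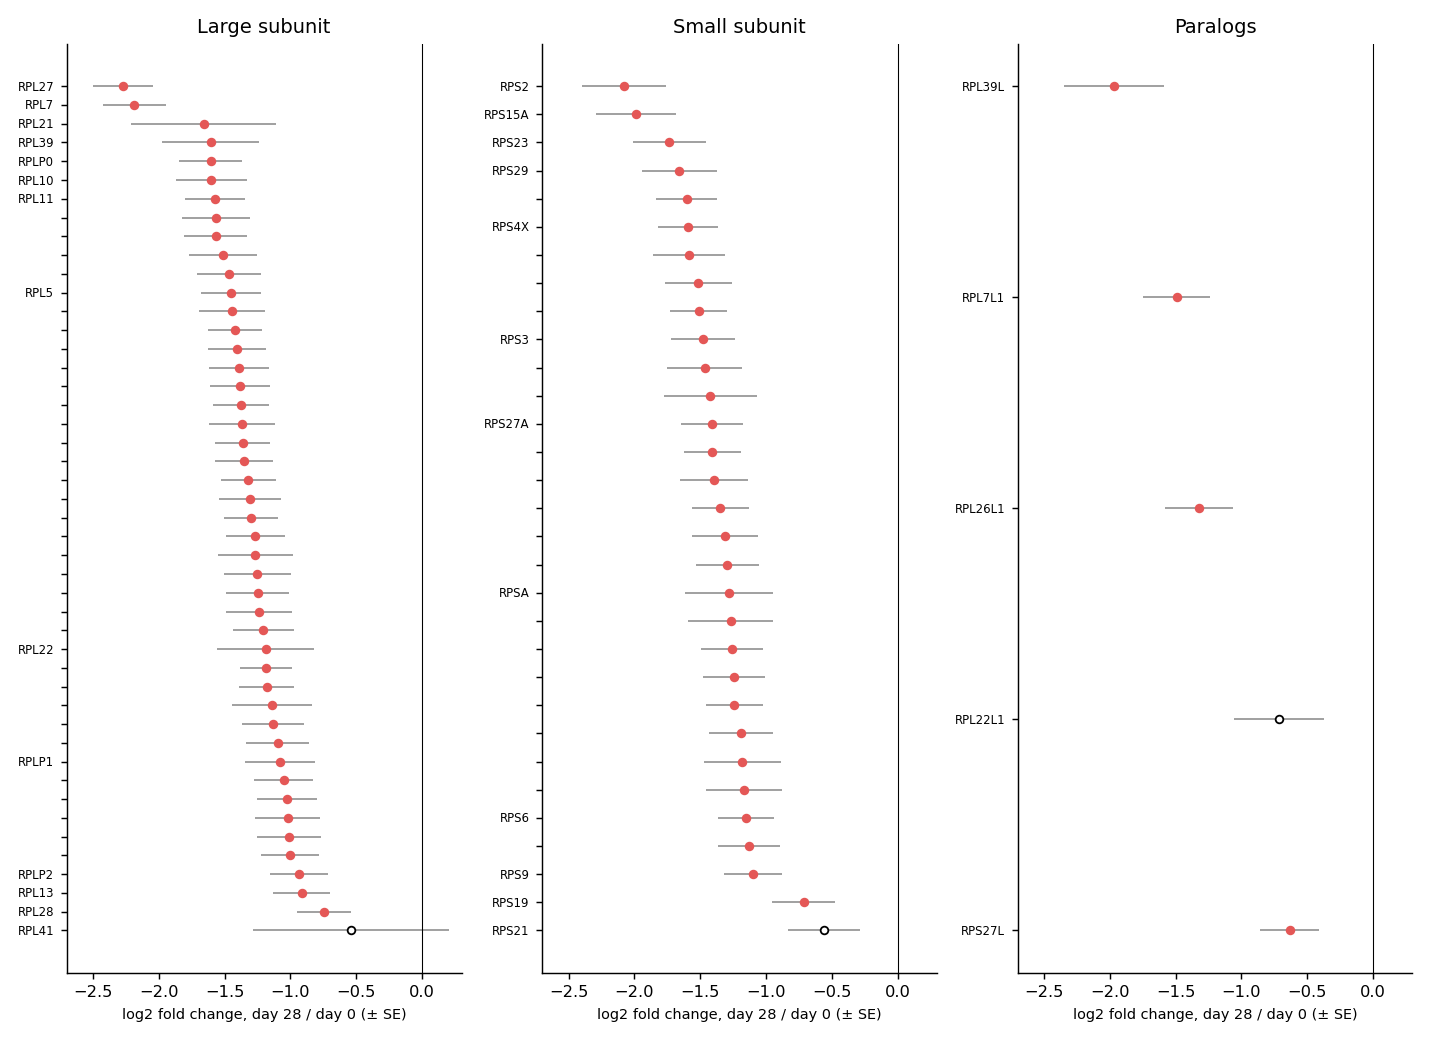
The log2 fold change of day 28 against day 0 (± SE, limma) for each of the 82 tested genes, ordered within large subunit, small subunit and paralogs, with a selection of the genes named in the text labelled; filled red points passed the test and open points did not. All 82 estimates are below 0, and RPL41, RPS21 and RPL22L1 are the open points.

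RPL27 fell most in the large subunit. This gene at chr17:42998751-43002920 encodes a 60S protein, and it was at 16.39, 16.62, 15.93, 16.08 and 16.97 at day 0 and at 14.00, 13.65, 14.47 and 14.52 at day 28. All 4 day 28 values lay more than 1 log2 unit below the lowest day 0 value (log2 fold change −2.27 ± 0.23 SE, limma adjusted p = 4.35e-05). RPL7 at chr8:73291044-73293612 went from 16.42, 17.08, 16.12, 16.71 and 17.03 to 14.07, 14.78, 14.52 and 14.73 (−2.19 ± 0.24, limma adjusted p = 6.24e-05). The next were RPL21 (−1.66), RPL39 (−1.61), a small protein of the exit tunnel, RPLP0 (−1.60), the base of the stalk that recruits elongation factors, and RPL10 (−1.60), which joins the 60S subunit late in its assembly. RPLP0 held 17.02 to 17.49 at day 0 and 15.26 to 16.22 at day 28, without overlap. The other 2 stalk proteins, RPLP1 and RPLP2, fell by 1.08 and 0.94 on the log2 scale.

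In the small subunit RPS2 fell most. RPS2, which lines the path of the mRNA into the ribosome, lies at chr16:1962098-1964625 and was at 17.70, 18.53, 17.54, 18.64 and 17.47 at day 0 and at 15.22, 16.02, 16.19 and 15.99 at day 28. The groups did not overlap (−2.08 ± 0.32 SE, limma adjusted p = 0.00035). RPS15A at chr16:18783009-18789113 went from 16.21, 17.32, 15.80, 16.89 and 16.71 to 14.45, 14.50, 14.98 and 14.49 (−1.99 ± 0.30, limma adjusted p = 0.000352). RPS23, a protein of the decoding centre, followed at −1.73, and RPS29 and the X-linked RPS4X stood at −1.66 and −1.59. RPSA, which doubles as a laminin receptor, fell by 1.28, RPS3 at the mRNA entry by 1.48, and RPS27A, made as a fusion with ubiquitin, by 1.41 on the log2 scale.

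RPS6, the 40S protein that S6 kinases phosphorylate downstream of mTORC1, was at 17.41, 17.59, 17.11, 17.15 and 17.89 at day 0 and at 15.98, 16.62, 16.23 and 16.50 at day 28. The day groups were separate, and the fall of 1.15 on the log2 scale was smaller than that of the median core gene. RPL5 and RPL11, which with 5S ribosomal RNA can bind MDM2, fell by 1.45 and 1.57. RPL5 held 17.97 to 18.80 at day 0 and 16.65 to 17.30 at day 28, and RPL11 held 17.12 to 17.85 and 15.45 to 16.29.

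RPL41 and RPS21 did not pass the test. RPL41, at chr12:56116788-56117524, encodes the shortest core protein, with 75 coding bases, and was at 13.38, 16.37, 13.21, 15.90 and 14.00 at day 0 and at 12.83, 15.99, 13.83 and 13.55 at day 28. Its values were set apart by clone rather than by day: the 3 clone 7 libraries were the 3 highest (−0.54 ± 0.74 SE, limma adjusted p = 0.557). RPS21 at chr20:62387339-62388466 was at 16.71, 17.29, 16.30, 16.53 and 17.25 at day 0 and at 15.77, 16.03, 16.77 and 16.57 at day 28. Its day 28 S and G2 values overlapped the day 0 range (−0.56 ± 0.27, limma adjusted p = 0.104), and without the day 28 S library it passed the test at −0.96 (adjusted p = 0.0121).

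Among genes that did pass, the smallest falls were in RPL28 and RPL13 in the large subunit and in RPS19 and RPS9 in the small subunit. RPL28 at chr19:55386358-55403131 was at 17.16, 17.40, 16.77, 16.91 and 17.17 at day 0 and at 16.20, 16.77, 16.24 and 16.35 at day 28, its highest day 28 library lying next to its lowest day 0 library (−0.74 ± 0.20 SE, limma adjusted p = 0.00952). RPS19, a protein of 40S maturation mutated in Diamond-Blackfan anaemia, lies at chr19:41860775-41871377. It was at 17.48, 17.73, 17.01, 17.37 and 17.28 at day 0 and at 16.23, 16.67, 16.91 and 16.88 at day 28 (−0.71 ± 0.24, limma adjusted p = 0.0254). RPL13 fell by 0.91 and RPS9 by 1.10. The calls of RPL21, RPS19 and RPL22 rested on single libraries. RPL21 lost its call without any of 5 libraries, which were both G2 libraries, the S library of day 28, clone 7 of day 0 G1 and clone 1 of day 28 G1 (adjusted p from 0.0617 to 0.0912). RPS19 lost its call without day 0 G1 clone 1 or clone 7, day 0 S clone 7 or day 28 G1 clone 1 (adjusted p from 0.0511 to 0.0664), and RPL22 without day 28 G1 clone 1 (adjusted p = 0.0641).

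To find genes that departed from the rest of the family, each gene was also measured against the median core gene of its own library. On this scale 4 core genes were called further down: RPL27 by 0.92, RPL7 by 0.83, RPS2 by 0.73 and RPS15A by 0.64 log2 units. Another 4 were called less reduced: RPS21 by 0.79, RPS19 by 0.64, RPL28 by 0.61 and RPL13 by 0.44 log2 units (limma adjusted p = 0.00143, 0.00429, 0.00763 and 0.049). Of all tested genes 1.58% were called below the family and 72.2% above it, together 73.8%. With so many genes called, the adjustment over all tested genes changed little. In limma 8 core genes had an unadjusted p under 0.05, the same number as were called. No adjustment was made among the core genes alone, so the weaker of these calls are uncertain. The remaining 69 of 77 core genes did not pass this test. The calls of RPL13, RPS15A and RPS2 were each lost without at least 1 library (adjusted p up to 0.178, 0.0801 and 0.0661), and those of RPL13 and RPS15A also in clone 1 alone (adjusted p = 0.199 and 0.258). With the clone as a block RPL41 was called less reduced than the family too, by 1.20 log2 units (limma adjusted p = 7.2e-05), as was the paralog RPL22L1 by 0.68 (adjusted p = 0.0422).

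The median core gene was lower at day 28 in every clone and phase that had a library on both days. It changed by −1.54 in G1 of clone 1, −1.61 in G1 of clone 7, −0.68 in S of clone 1 and −1.37 in G2 of clone 1, all on the log2 scale. In both G1 pairs and in G2 all 77 core genes were lower at day 28, and in S 75 of 77 were. The 2 exceptions were RPL41 (+0.61) and RPS21 (+0.46) in S. Core genes share libraries and are not independent replicates, and these counts were not made over all tested genes. In the G1 fit 50.5% of estimates over all tested genes were above 0, against 0 of 77 core genes. In G1, where 2 clones were present on each day, 41 of 46 large and 27 of 31 small subunit genes fell (limma), with 19.1% of all tested genes called lower. Without the day 28 G1 library of clone 1 the count was 39 of 77 core genes. The 9 core genes that did not pass in G1 were RPL13A, RPL21, RPL22, RPL28, RPL41, RPS20, RPS26, RPS27 and RPSA, all with negative estimates. With the clone as a block, 76 of 77 were called lower in G1, RPL41 being the exception (−0.46, limma adjusted p = 0.1) and RPL21 moving from an adjusted p of 0.251 to 0.0025.

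**Figure D3:**
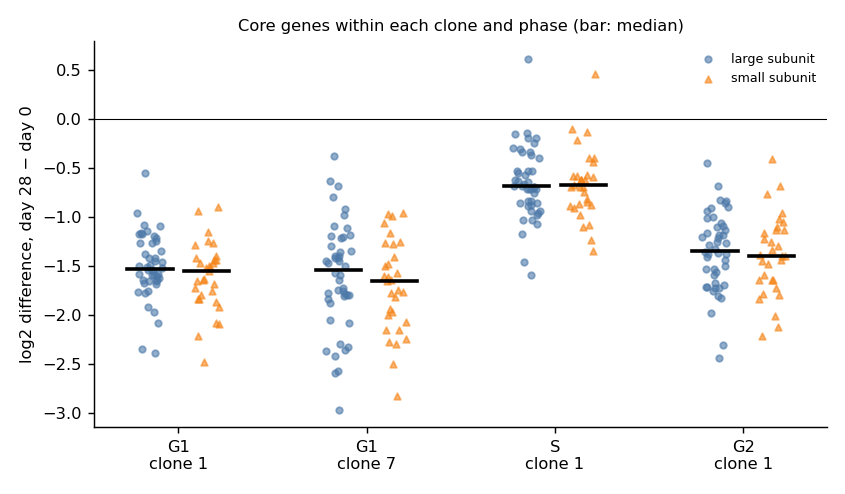
The log2 difference between day 28 and day 0 for each core gene within a clone and phase (blue circles, large subunit; orange triangles, small subunit; bars, medians). The S pair of clone 1 has a median of −0.68, nearer to 0 than the G1 and G2 pairs, at −1.37 to −1.61, and holds the 2 points above 0.

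Whether the fall differed between phases was tested with a day-by-phase term that sets S and G2 together against G1. The median term of the core genes was 0.50 and 74 of 77 were above 0, against 50.5% of all tested genes. That median was 0.24 without the S library of day 28, 0.27 without clone 7 of day 0 G1 and 0.75 without either G2 library. None passed the test, nor did any of the 12391 genes (0.0% called by limma; 1382 genes, of which 4 core genes, had an unadjusted p under 0.05). A difference in the fall between phases was therefore not shown.

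No core gene was called between phases within a day. At day 0 all 77 estimates of S against G1 were below 0, with a median of −0.39, whereas 45% of all tested genes had estimates above 0. S was below G1 in 77 of 77 core genes of clone 1 and 75 of 77 of clone 7, which was not counted over all tested genes. The median was −0.20 without clone 7 of the G1 sort, −0.22 without clone 1 of the S sort, −0.59 without clone 7 of the S sort and −0.24 under quantile scaling. No gene of any kind passed limma (0.0% called), and 443 of all tested genes but 0 core genes had an unadjusted p under 0.05. At day 28 S and G2 together were above G1 in 66 of 77 core genes, against 49.7% of all tested genes, with a median of 0.31 and no call. The median was 0.05 without clone 1 of the G1 sort, 0.49 without clone 7 of it and 0.53 with the clone as a block. Of all tested genes 4.75% were called there, 2.9% being higher in S and G2. The clone 1 libraries set S above G1 in 77 of 77 core genes at day 28. However, S was above G1 of clone 7 in 46 of 77, and again this was not counted over all tested genes. The paralog RPL39L was the only member called there, at +1.98 ± 0.40 SE (limma adjusted p = 0.0383). With the clone as a block RPL39L did not pass (+1.91, limma adjusted p = 0.0551) and RPS15 did (+1.01, adjusted p = 0.0458). RPL39L also did not pass without either day 0 S library or without day 28 G1 of clone 7.

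The clones differed in RPL41 and RPL21. Clone 7 exceeded clone 1 by 2.77 ± 0.26 log2 units in RPL41 (limma adjusted p = 0.000817) and by 2.01 ± 0.23 in RPL21 (adjusted p = 0.0037), and no other core gene passed. Of all tested genes 0.613% were called, 0.387% higher in clone 7. The RPL41 differences were 2.99 in day 0 G1, 2.69 in day 0 S and 3.16 in day 28 G1. Those of RPL21 were 2.07, 2.18 and 2.16. RPL21, at chr13:27253777-27256525, was at 14.83, 16.90, 14.38, 16.56 and 15.34 at day 0 and at 13.29, 15.45, 13.70 and 13.52 at day 28, so it was lower at day 28 in both clones, with clone 7 4.02-fold above clone 1 in the fit. Without day 0 G1 of clone 1 only RPL41 passed. Without day 28 G1 of clone 7, 6 core genes passed, the added ones being RPL22, RPL39, RPS26 and RPS27.

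**Figure D4:**
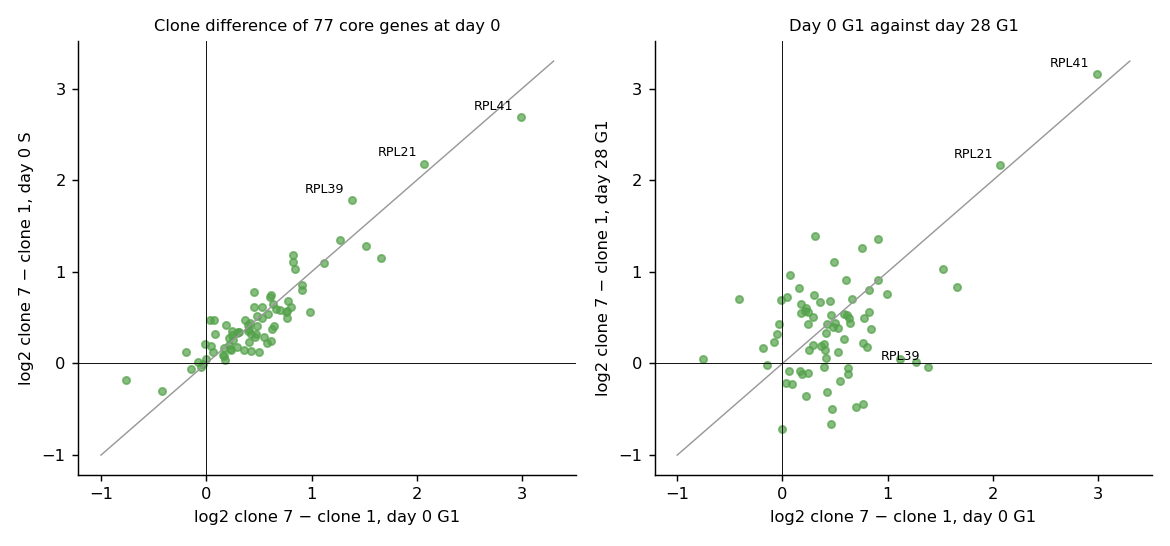
Each point is a core gene, with the log2 difference between clone 7 and clone 1 in day 0 G1 on the horizontal axis and the same difference in day 0 S (left) or day 28 G1 (right) on the vertical axis; the grey line marks equal differences. RPL41 (2.99, 2.69 and 3.16) and RPL21 (2.07, 2.18 and 2.16) are the highest points in all 3, while RPL39 is at 1.38 and 1.78 at day 0 and at −0.04 at day 28.

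Levels are given as reads per kb of coding sequence per M reads, which compares genes only roughly. The length is that of the coding sequence, while the span that the reads belong to can hold introns. At day 0 the core genes ranged from 927.1 for RPS15 to 7767 for RPS24, with RPL13A at 7625 and RPL37A at 6372, and at day 28 the same 4 genes were at 486.7, 3689, 4693 and 3878. RPL37A had a span of 80.06 kb, the longest of the core genes, so some of its reads may come from introns if these were counted. RPS28 had the shortest span of the core genes, 0.545 kb. Paralogs were lower at day 0: RPL22L1 548.7, RPL39L 275.1, RPS27L 187.7, RPL26L1 151.3, RPL7L1 33.3 and RPL3L 0.972.

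Of the 5 paralogs that passed the filter 4 fell, with a median log2 fold change of −1.32 over the 5, against 26.6% of all tested genes called lower. In 3 of the 5 no day 28 library reached the day 0 range, as in 18.9% of all tested genes. RPL39L, at chr3:187121145-187121300, was at 11.69, 12.24, 11.84, 11.94 and 12.68 at day 0 and at 9.59, 8.52, 11.24 and 10.83 at day 28. Its day 28 against day 0 estimate was −1.97 ± 0.38 SE (limma adjusted p = 0.00139). At day 28 its G1 libraries were lower than S and G2. RPL7L1 was at 11.46, 10.69, 11.70, 10.99 and 11.71 and then at 9.72, 9.69, 9.93 and 9.85 (−1.49 ± 0.25, limma adjusted p = 0.000635). RPL26L1 was at 12.59, 13.10, 12.25, 12.87 and 12.86 and then at 10.69, 11.56, 11.65 and 11.78 (−1.32 ± 0.26, limma adjusted p = 0.00149). These 3 changes are within the range of the core genes.

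RPS27L and RPL22L1 overlapped between days. RPS27L was at 12.29, 12.20, 11.89, 12.27 and 12.64 at day 0 and at 11.76, 10.94, 11.76 and 12.13 at day 28 (−0.63 ± 0.22 SE, limma adjusted p = 0.032). It was called less reduced than the median core gene by 0.72 log2 units (adjusted p = 0.0314). Each of these calls was lost without any of several single libraries, the first with adjusted p from 0.0587 to 0.078 and the second from 0.0699 to 0.102. RPL22L1 was at 13.65, 15.16, 13.46, 14.56 and 14.48 at day 0 and at 13.86, 13.25, 13.87 and 13.27 at day 28, and did not pass (−0.71 ± 0.34, adjusted p = 0.0962). Its G1 pair of clone 1 differed by +0.21 and its G1 pair of clone 7 by −1.91. It passed without day 0 G1 of clone 1 (−0.96, adjusted p = 0.0341) or day 0 S of clone 1 (−0.90, adjusted p = 0.0298).

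The balance between a paralog and its parent gene does not depend on library scaling. Coding sequences of the pairs are similar enough to ask whether reads could be mistaken. The longest identical run between a paralog and its parent was 11 bases for RPL7L1, 17 for RPL22L1 and 20 for RPL26L1 and RPS27L. It was 44 for RPL39L and 60 for RPL36AL, whose coding sequences were 94.8% and 89.9% identical to their parents. All these runs are shorter than a read of 75 bases. That alone does not settle the question, and misplaced reads were not tested for. RPL22L1, whose parent RPL22 is an RNA-binding protein known to hold down RPL22L1, made up 29.78%, 29.64%, 34.42%, 31.74% and 32.40% of the pair at day 0, a narrow range. At day 28 it made up 54.13%, 27.44%, 43.87% and 30.20%, high in G1 and S of clone 1 and not in G1 of clone 7 or in G2. The mean log2 ratio changed by 0.39 within phases (exact permutation p = 0.25, adjusted over 6 pairs p = 0.5), so the pair is not shown to have shifted.

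RPL7L1 made up 1.18% to 4.47% of its pair at day 0 and 2.85% to 4.66% at day 28, RPS27L 3.39% to 8.56% and 6.10% to 11.67%. RPL26L1 made up 5.32% to 8.73% and 5.40% to 9.52%, and RPL39L 4.05% to 11.96% and 1.94% to 9.60%. The ranges overlapped in each pair. Including RPL36AL with RPL36A, 6 pairs were tested and none passed (exact permutation, adjusted p from 0.5 to 0.944). That test did not use the clone, and the ranges hold the difference between clones. Between libraries of the same clone and phase, the log2 ratio of RPS27L to RPS27 was higher at day 28 in 4 of 4 pairs, by 0.37 in G1 of clone 1, 0.89 in G1 of clone 7, 0.08 in S and 0.74 in G2. The log2 ratio of RPL39L to RPL39 was lower in 4 of 4, with differences of −0.93, −1.12, −0.36 and −0.17 in the same order. The other 4 ratios were higher in 1 to 3 of the 4 pairs, and no test was made of these matched differences. In all 3 matched sorts, RPL39L, RPL7L1, RPS27L and RPL22L1 took a larger share of their pairs in clone 1 than in clone 7. For RPL22L1 the difference was small in day 0 G1 (29.78% against 29.64%). RPL26L1 went the other way in all 3 sorts (6.6% against 7.9%, 7.0% against 8.7% and 5.4% against 6.4%). RPL36AL was higher in clone 1 in both day 0 sorts and lower in day 28 G1 (10.13% against 16.56%).

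**Figure D5:**
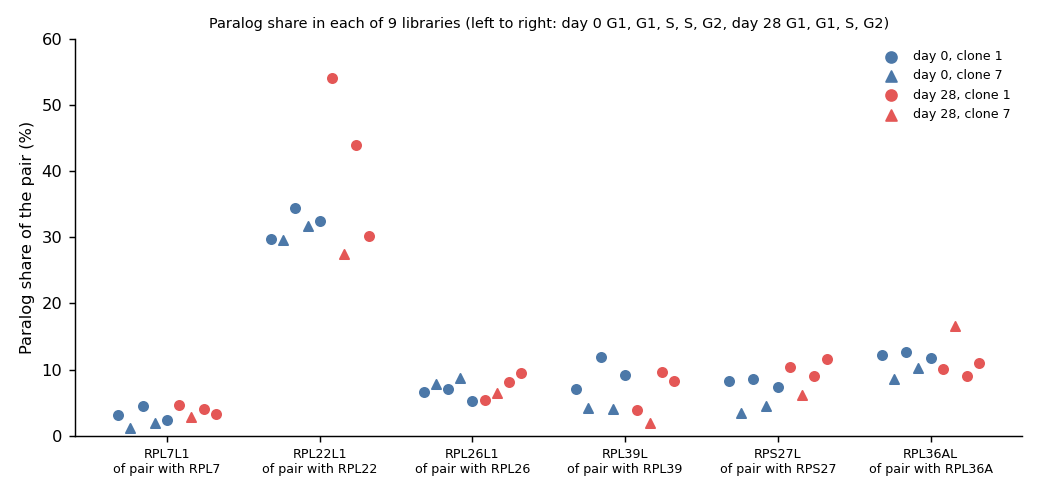
The share of each pair's reads held by the paralog (%), in 9 libraries per pair from left to right (day 0 in blue, day 28 in red, circles for clone 1, triangles for clone 7). RPL22L1 ranges from 29.64% to 34.42% at day 0 and from 27.44% to 54.13% at day 28, and the other 5 pairs reach at most 16.56%.

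The calls were also split by the TOP motif at the listed start. Of the 46 with it 44 were called lower with a median of −1.27, and of the 16 without it 16 were called lower with a median of −1.33. RPL27, the steepest, does not have the motif at its listed start, and RPL41 and RPS21, which did not pass, both have it. Only the exact listed base was searched, and the RPL27 window ends in a run of pyrimidines. The split therefore need not separate TOP mRNAs from others. Among the other tested genes 31.3% of 699 with the motif and 26.1% of 9097 without it were called lower.

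Features of the genes themselves were set beside the change at day 28. The 27 core genes that hold small nucleolar RNA genes in their spans, such as RPL4 with 5, were all called lower with a median of −1.31, the same as the median of −1.31 for the 50 without. The 7 core genes that overlap another coding gene on their strand, whose reads could be shared, were all called lower (median −1.35). Across the 77 genes, which share libraries and depth and are not independent replicates, Spearman's rho with the log2 fold change was −0.35 for the number of named pseudogenes, −0.25 for coding length, −0.06 for span and −0.04 for level. RPL23A has 91 named pseudogenes, RPSA 74, RPL21 66 and RPL7 61, and how the authors' counting treated reads that match a gene and its pseudogenes is not given in the sources used here, so the levels of such genes are uncertain.

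Outside the symbol rule, FAU, made as a fusion of a 40S protein with a ubiquitin-like protein, fell by 1.21 and RPL36AL by 1.22 on the log2 scale. Other mRNAs known for a TOP motif were represented by 22 genes, of which 20 fell and none rose, with a median of −1.28, where 26.6% of all tested genes were called lower and 28.6% higher. The largest falls were in VIM (−4.69), NPM1 (−1.75), EEF1A1 (−1.69) and EEF1B2 (−1.59), while EIF4A2 stood at −0.03 (adjusted p = 0.906) and EEF1D at −0.56 (adjusted p = 0.057).

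Of 16 genes of mTORC1 signalling and TOP control 4 rose and 7 fell, against 28.6% and 26.6% of all tested genes, so the share that rose was close to the background. EIF4EBP2, a repressor of cap-dependent translation, rose by 1.45 and its relative EIF4EBP1 fell by 1.13. LARP1, which holds TOP mRNAs, rose by 0.83 and LARP1B by 0.87, and TSC2, an inhibitor of the pathway, rose by 0.65. MYC, which drives transcription of ribosomal protein genes, fell by 1.12 and held 13.62 to 14.36 log2 scaled reads at day 0 and 12.43 to 13.43 at day 28. AKT1S1, an inhibitor of mTORC1, fell by 0.79, RHEB, its activator, by 0.65, the subunit MLST8 by 0.70, the cap-binding EIF4E by 0.89 and the S6 kinase RPS6KB2 by 0.64. MTOR (−0.28), RPS6KB1 (−0.16) and DEPTOR (+1.16) did not pass. Of 12 chaperones and assembly partners of ribosomal proteins 10 fell and none rose, against the same 26.6% and 28.6%, led by GRWD1, which escorts RPL3, at −1.79, NOB1, the nuclease of 18S maturation, at −1.46 and TSR2, which escorts RPS26, at −1.35. RRS1 and BRIX1, which help to assemble the 5S particle with RPL5 and RPL11, fell by 1.49 and 1.33. MDM2, which RPL5 and RPL11 bind, rose by 1.40.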

How the data were processed

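The authors' deposited log2 values cover 80037 rows, each a coding transcript, in 9 libraries. Per the submitters' processing notes, HISAT2 2.1.0 aligned the reads to GRCh38, and DESeq2 is listed with no version. The counter, the scaling and the annotation are not given in the sources used here. The values were checked to be log2 of whole reads times 1 factor per library, no reads being entered as 0.9 (for values up to 1000 reads, 100% lay within 0.05 of a whole number). The 368 rows of the 84 members were reduced to the row with the highest mean per symbol. Shares were taken from the values made linear, in which no reads stayed at 0.9 of a read. Y-linked members of the family were not analysed here, and the planned protein comparison was not made. Some single genes are not reported here.

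After the log2 values were made linear, 1 was added and log2 was taken again. Genes with a mean log2 of at least 7.01 (10 reads in the shallowest library) entered limma 3.58.1 (lmFit, then eBayes with a mean trend, p-values adjusted by Benjamini-Hochberg) in R 4.3.3 with the data.table package (1.17.8). Folds are on this scale. The spread was pooled over groups, so a lone library took the spread of the rest. The day effect was fitted beside phase, the comparisons within a day or phase used group means, and the clone comparison added clone. The scripts were tested on simulated data. Single values and ratios used exact permutation in Python 3.11.15 (scipy 1.17.1, numpy 2.4.6, pandas 2.3.3; figures with matplotlib 3.10.9), and paralog pairs were aligned with Biopython 1.88 on GENCODE v29 coding sequences. Start sequences are from RefSeq (67 of 84 members matched).

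The labels number the clones 1 and 7. The correlation of the clone difference (7 minus 1) over tested genes was 0.653 for the G1 and S sorts of day 0. It was 0.115 for the G1 sorts of the 2 days, and 0.296 for the S sort of day 0 with the G1 sort of day 28. Over all tested genes the numbers thus paired the sorts of day 0, and pairing across days was weak. Over the 77 core genes the same 3 correlations were higher, at 0.919, 0.516 and 0.510. For the core genes the clone difference was thus partly shared across days. The main day fit had no clone term. A fit blocked by clone is printed beside a result whose call it changes. Members, lists and tests were chosen with earlier results of these data known. Named genes were the paralogs, the 6 core genes with the most negative and the 3 with the least negative change in each subunit, those that did not pass, a set of well-known members, those called in other comparisons or relative to the family median, and up to 4 per other list with a few regulators. EEF1D, EIF4A2 and the remaining mTORC1 genes were added after their values were seen.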

Additional observations from a re-analysis of the deposited data

Results flagged for a closer look

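In 7 of 180 groups of 4 or 5 libraries checked, a single library lay far from the rest, where chance gives about 1 in 20. In 6 of these it was day 28 G1 of clone 1, the lowest library at day 28: RPL37A at 16.14, RPL9 at 14.26, RPLP2 at 13.92, RPS28 at 13.65, RPS3 at 16.49 and RPS9 at 15.64 log2 scaled reads. The same library had the lowest core share of reads, 4.48%. In the other, day 28 S of clone 1 was the highest for RPS15A, at 14.98.

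Opposite directions between phases were seen in 3 genes, in pairs of libraries, and the differences were not tested. RPL41 was +0.61 in S and −0.45 in G2, and negative in both G1 pairs. RPS21 was +0.46 in S and −0.68 in G2, and negative in both G1 pairs. RPL22L1 was −1.21 in G2 and +0.42 in S.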

How the results depend on the processing

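Median-of-ratios scaling, no filter, pseudocounts of 0.1 and 5, clone 1 alone, the lower-valued row per gene and a precision-weighted fit (voom) left the count of core genes called at day 28 within 1.5 times of 75, and the cause of the changes below was not tested. Quantile scaling gave 31 core genes called at day 28 (median −0.50), 22 in G1 instead of 68 and 1 instead of 0 for S and G2 against G1 at day 28, and it turned RPL13 (0.11), RPL18 (0.07), RPL28 (0.27), RPL37A (0.07), RPS19 (0.36), RPS21 (0.41) and, in G1, RPL41 (0.09) above 0. It moved the median of all tested genes from 0.01 to −0.11, and median-of-ratios scaling to −0.02. For genes with spans up to 10 kb quantile scaling moved the median from −0.42 to −0.52. Removing the trend with span gave a core median of −0.99, with 70 core genes called. With the clone as a replicate block, 1 core gene was called for S and G2 against G1 at day 28 and the block moved no other count by over 1.5 times. The calls it changed are given beside the results.

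Leaving out a library in turn gave 72 to 75 core genes called at day 28, a median of −1.53 to −1.20, 39 to 68 called in G1 (39 without day 28 G1 clone 1), 6 to 9 relative to the family median, 1 to 6 for the clones and 0 to 0 for the other 3 comparisons. S and G2 against G1 at day 28 was not run without day 28 S or G2. The share difference ran from −6.47 to −5.39 points, with p from 0.0556 to 0.167 because fewer arrangements remain. RPL41 ran from −1.13 to 0.02 over the phases and from −2.04 to 1.12 in G1, above 0 without day 28 G1 clone 1 in both and also without day 0 G1 clone 7 (1.03) in G1. Among the pair ratios, that of RPL26L1 ran from −0.127 (without either G2 library) to 0.295, that of RPL39L from −0.596 to 0.0462 (without day 0 S clone 1), and that of RPL36AL from −0.162 to 0.146. The RPL36AL ratio was 0.06 with days permuted over all 9 libraries.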
